A study of Caenorhabditis elegans with 2 samples.

Results

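Genes of fatty acid and lipid metabolism were examined for candidate binding regions of NHR-237, a nuclear hormone receptor of Caenorhabditis elegans. The members were 96 of the 19973 protein-coding genes on the nuclear chromosomes in Ensembl release 115. Of these, 12 were listed singly (fat-1 to fat-7, sbp-1, mdt-15, pod-2, fasn-1 and dgat-2), and the rest belonged to the gene families acs- (22 genes), acdh- (13), ech- (10), elo- (9), lbp- (9), lipl- (8), acox- (7) and cpt- (6). The rule used gene names and no measured value, but it was set with earlier results of these data known. For each gene, the promoter was the stretch from 1000 bp upstream to 100 bp downstream of the annotated gene start, and the region of highest signal with its summit inside that stretch was taken from each list.

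The measurement was chromatin immunoprecipitation followed by sequencing (ChIP-seq), which recovers DNA fragments attached to a tagged protein. There was 1 group of 2 biological replicates: L3 larvae of strain OP228, which carries the unc-119(ed3) allele on chromosome III and the transgene wgIs228 with eGFP-tagged nhr-237, labelled as both sexes pooled. Whole animals were used, so a signal in 1 tissue is diluted by all others, and the regulatory sequence that drives the transgene and its copy number are not given in the labels. No second genotype, stage or treatment was labelled, so no test between groups was made. Input coverage was not analysed here. A list of 30000 regions was examined for each replicate and for the pool of both. These lists hold peaks together with background by design, so a region in one list is a candidate and not by itself a binding site. A shorter list held the 48 peaks that passed the authors' irreproducible discovery rate (IDR) threshold, with pooled signals from 42.7 to 204. The signal is the authors' own value, on a scale that is not stated. It ranged from 13.8 to 204 in the pooled list, from 7.61 to 119 in replicate 1 and from 7.41 to 85.9 in replicate 2, and is compared only within a list, through its rank (1 is the highest of 30000). The pooled list was made from the same reads as the replicate lists and is no further measurement. Sequencing depth is unknown.

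In animals, acetyl-CoA carboxylase and fatty acid synthase build fatty acids, which elongases and desaturases lengthen and unsaturate. Acyl-CoA synthetases activate fatty acids, binding proteins and carnitine palmitoyltransferases carry them, and acyl-CoA dehydrogenases, acyl-CoA oxidases and enoyl-CoA hydratases break them down in mitochondria and peroxisomes. In C. elegans this metabolism is centred in the intestine and hypodermis, and nuclear hormone receptors such as NHR-49 and NHR-80 act on desaturase and beta-oxidation genes, in part with the Mediator subunit MDT-15. The sterol regulatory element binding protein SBP-1 acts on fatty acid synthesis and desaturation.

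No lipid gene had an IDR peak at the promoter (0 of 96, exact Clopper-Pearson 95% upper limit 3.77%), against 0.0951% of all protein-coding genes, or 19 genes, so the count of 0 lay near the background. The highest pooled signal at a lipid promoter was 28.1, at acdh-12, below the lowest IDR peak at 42.7. In the pooled list 27 of 96 members had a candidate at the promoter (28.1%, Clopper-Pearson 95% interval 19.4 to 38.2%), against 31.1% of all protein-coding genes. The replicate 1 list had 31 members (32.3%) and a background of 30.5%, and the replicate 2 list 27 members (28.1%) and a background of 31.2%. Each of the 3 shares lay near its background. Intervals cover counting error over genes only. In the top 5000 regions of the pooled list, 8 members had a candidate (8.33%, interval 3.67 to 15.8%), against 5.89% of all genes. These intervals treat genes as independent, and no test of the list against other genes was made.

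**Figure D1:**
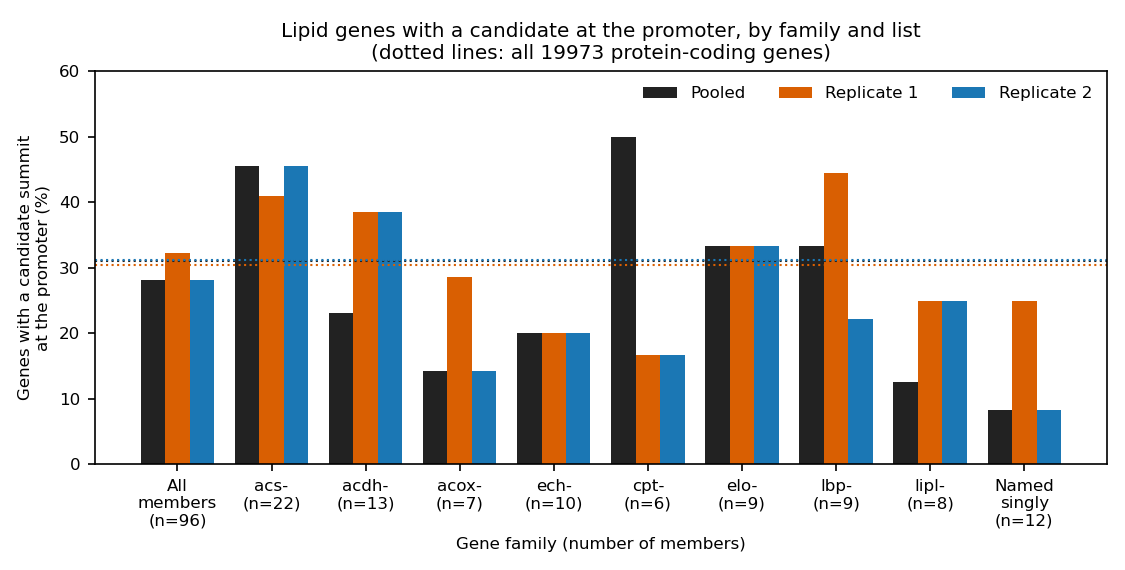
The bars give the percentage of genes with a candidate summit at the promoter (y axis, from 0) in the pooled, replicate 1 and replicate 2 lists, for all 96 lipid genes and for each gene family (x axis, with the number of genes), and dotted lines give all 19973 protein-coding genes in each list. All members together reach 28.1, 32.3 and 28.1%, near the dotted lines at 31.1, 30.5 and 31.2%, and single families hold few genes.

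At least 1 list held a candidate for 46 members, and 50 had none in any list (52.1%, against 49.2% of all genes). Both replicate lists held a candidate for 14 members (14.6%, against 13.3% of all genes), and all 3 lists for 12 (12.5%, against 11.8%). These 14 were 45.2% of the members found in replicate 1 and 51.9% of those found in replicate 2. Over all genes the same shares were 43.6 and 42.6%. Summits of the 2 replicates lay within 100 bp of each other at 8 members (8.33%, against 6.68% of all genes), and a pooled summit was within 100 bp of both at 7 (7.29%, against 6.29%). A single list held the candidate of 19 members (19.8%). Neither this share nor its split by list was computed over all genes, so neither can be called high or low. Of these, 10 had one only in replicate 1, among them fat-4 and acox-1.2. A further 7 had one only in replicate 2, among them acdh-2 and elo-6, and 2 only in the pool, cpt-1 and cpt-6.

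Where members had a candidate, its height was also ordinary. The pooled signal had a median of 19.2 over 27 members and of 17.9 over 6207 genes, with median ranks of 10593 and 13918. Replicate 1 gave medians of 10.8 for members and 10.3 for genes, whereas replicate 2 gave 9.40 and 9.92, so members were above all genes in one replicate and below them in the other. A rank of 1000 or better was reached by 1 member in 1 list, acox-1.1 in replicate 2. Among the 14 members in both replicates Spearman's rho of signal was 0.15, and among all 2656 such genes 0.089. This correlation is across genes and is given as a description, since genes of 1 library share its depth and background.

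**Figure D2:**
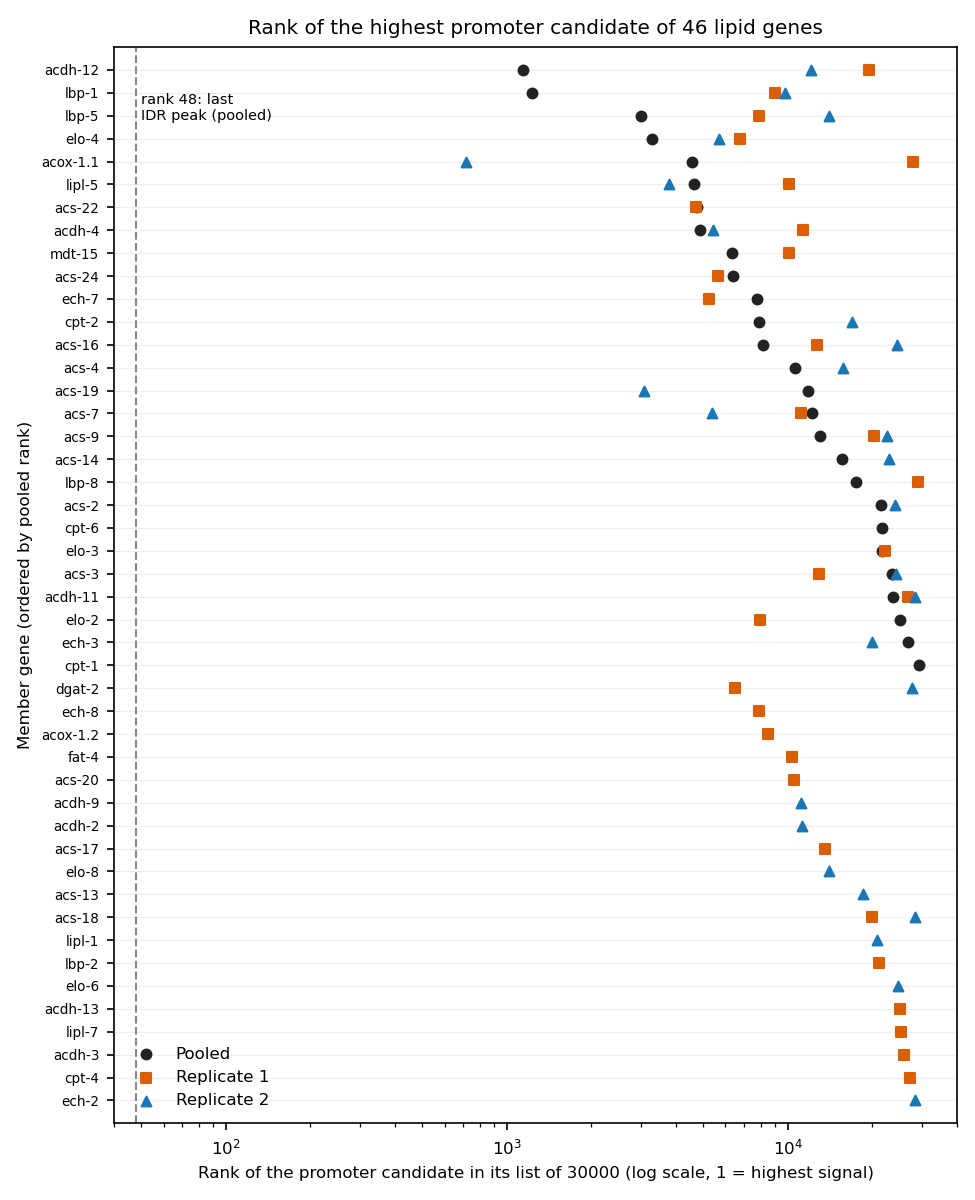
Each row is 1 of the 46 lipid genes with a candidate in any list, ordered by pooled rank, and each mark gives the rank of its highest promoter candidate in the pooled, replicate 1 or replicate 2 list of 30000 regions (x axis, log scale, 1 is the highest signal). The dashed line is set at rank 48, the number of IDR peaks. It is labelled as the last IDR peak, but the pooled rank of that peak was not computed, and the line does not apply to replicate ranks. No gene reaches it: the highest pooled rank is 1143 at acdh-12, and the single mark below 1000 is replicate 2 at acox-1.1 (717).

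At 7 members a pair of replicate summits and a pooled summit lay within 100 bp of each other. The sequences around 5 of these 7, from different gene families, are shown. The remaining pair, lbp-5 and acs-16, met the same limit and is named only. Each runs 5′ to 3′ on the strand of the gene, from 100 bases before to 100 bases after the pooled summit, in WBcel235 (ce11) from the RefSeq genome. Capitals mark matches to 6 motifs searched on both strands: AGGTCA and its variant AGTTCA, the core sequences of many nuclear receptor sites, GAGAGA (a GA repeat), TGATAA (bound by zinc finger factors of the intestine), CACGTG (an E-box of helix-loop-helix factors) and CANNTG (the general E-box, which includes the former). The regions are chrII:7195804-7196004 for acdh-12 (minus strand), chrX:3258167-3258367 for lbp-1 (plus), chrIII:9334900-9335100 for elo-4 (minus), chrV:384803-385003 for lipl-5 (plus) and chrX:16880359-16880559 for acs-9 (minus).
acdh-12: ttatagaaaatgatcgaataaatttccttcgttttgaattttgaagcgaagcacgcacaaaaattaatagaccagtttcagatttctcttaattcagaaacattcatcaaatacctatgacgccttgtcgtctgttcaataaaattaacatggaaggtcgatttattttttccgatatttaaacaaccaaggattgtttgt
lbp-1: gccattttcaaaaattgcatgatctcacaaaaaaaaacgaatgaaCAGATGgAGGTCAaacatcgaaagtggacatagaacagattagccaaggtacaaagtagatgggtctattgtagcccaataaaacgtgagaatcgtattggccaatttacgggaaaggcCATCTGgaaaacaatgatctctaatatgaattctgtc
elo-4: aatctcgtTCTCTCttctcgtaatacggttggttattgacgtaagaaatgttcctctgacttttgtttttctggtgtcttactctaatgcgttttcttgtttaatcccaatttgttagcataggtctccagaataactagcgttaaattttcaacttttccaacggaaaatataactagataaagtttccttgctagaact
lipl-5: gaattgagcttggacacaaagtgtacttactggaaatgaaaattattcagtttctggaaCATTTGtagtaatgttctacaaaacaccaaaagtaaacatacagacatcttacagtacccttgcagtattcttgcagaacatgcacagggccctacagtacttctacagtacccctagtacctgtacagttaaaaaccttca
acs-9: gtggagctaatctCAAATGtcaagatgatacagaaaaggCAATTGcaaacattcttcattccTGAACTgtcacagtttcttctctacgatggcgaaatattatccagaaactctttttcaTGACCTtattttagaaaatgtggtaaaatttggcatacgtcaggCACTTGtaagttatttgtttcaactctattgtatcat

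No motif of the 6 was found in the acdh-12 sequence, and GAGAGA was found once in that of elo-4. An AGGTCA lay in the lbp-1 and acs-9 sequences, and acs-9 also held an AGTTCA. Over the 27 pooled member summits AGGTCA lay within 100 bp of 4 (14.8%), those of lbp-1, acs-9, acs-16 and acs-3, against 5.54% of 6207 gene promoter summits. The variant AGTTCA lay at 2 (7.41%, against 13.4%), GAGAGA at 5 (18.5%, against 13.6%), TGATAA at 6 (22.2%, against 19.2%), CANNTG at 14 (51.9%, against 57.1%) and CACGTG at 0 (against 3.59%). In the replicate lists AGGTCA lay at 4 of 31 (12.9%, against 5.89%) and 3 of 27 (11.1%, against 5.50%). Within 50 bp of the summit it lay at 3 of 27 in the pool (11.1%, against 2.90%), 1 of 31 in replicate 1 (3.23%, against 2.90%) and 0 of 27 in replicate 2 (against 2.96%), so the higher share was not seen in either replicate at that width. At the same width CANNTG lay at 5 of 27 in the pool (18.5%, against 35.2%) and 6 of 31 in replicate 1 (19.4%, against 34.0%). In replicate 2 it lay at 8 of 27 (29.6%, against 34.5%), so its share was below that of all genes in each list. The remaining motifs are given for the pool within 100 bp only. These are counts of letters in a window on few regions, with no test. Median GC content within 100 bp was 35.8% at the member summits and 35.8% at those of all genes.

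Among breakdown enzymes, acdh-12 (WBGene00017125, minus strand, start at II 7195641) had the highest pooled signal of the list. This gene encodes a predicted very-long-chain acyl-CoA dehydrogenase. Its candidate spanned II 7195729 to 7196078, with the summit 263 bp upstream in intergenic sequence, a signal of 28.1 and rank 1143 in the pool. Signals were 9.16 in replicate 1 (rank 19381, summit 256 bp upstream) and 10.4 in replicate 2 (rank 12130, 241 bp upstream). The summits of all 3 lists lay between 241 and 263 bp upstream, while the replicate ranks were far lower than the pooled one. The same summit lay 372 bp upstream of maoc-1, on the opposite strand, which encodes a peroxisomal enoyl-CoA hydratase. The 2 divergent genes thus have this region in common, and the candidate cannot be assigned to one of them.

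The peroxisomal acyl-CoA oxidase gene acox-1.1, whose product shortens ascaroside side chains, had the widest difference in replicate ranks among the 14 members found in both. The pooled candidate (I 12937462 to 12937811, 918 bp upstream) had a signal of 22.8 and rank 4572. Replicate 2 gave 17.5 at rank 717, and replicate 1 gave 7.89 at rank 27790, close to the lowest value of its list (7.61). The 3 further genes of its tandem cluster had no pooled candidate, and of these acox-1.2 had 1 in replicate 1 alone (11.6, rank 8535), inside an exon of acox-1.1. The other acox- genes, acox-1.5, acox-1.6 and acox-3, had none in any list. For acdh-4 the signals were 22.5 (rank 4886), 10.8 (rank 11353) and 12.7 (rank 5418) in the pool, replicate 1 and replicate 2. Its pooled summit was 980 bp upstream, inside an intron of the neighbouring gene F57B10.8. At acdh-11, whose product binds mid-chain fatty acids and limits fat-7 expression, the signals were low in every list, at 15.2, 8.04 and 7.61 with ranks from 23592 to 28433. The propionate shunt gene acdh-1 had no candidate. Of the 10 ech- genes, ech-7, a predicted enoyl-CoA hydratase, had 20.6 in the pool (rank 7772, 538 bp upstream) and 13.03 in replicate 1 (rank 5225), and none in replicate 2. The ech-3 signal was 14.5 in the pool and 8.85 in replicate 2, at summits 45 and 911 bp upstream, which are different positions. No ech- gene had a candidate in both replicates, against 13.3% of all genes.

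Of the acyl-CoA synthetase genes, 10 of 22 had a pooled candidate (45.5%, against 31.1% of all genes). Replicate 1 held one for 9 (40.9%, against 30.5%) and replicate 2 for 10 (45.5%, against 31.2%). Both replicates held one for 5 (22.7%, against 13.3%). The cpt- genes had 3 of 6, and the pooled share of the other families ran from 8.33% (genes listed singly) to 33.3% (elo- and lbp-). These shares rest on few genes, and no family was tested. The highest acs- signal was at acs-22, which encodes a fatty acid transport protein homologue: 22.6 in the pool (rank 4764, X 8930165 to 8930514, 839 bp upstream) and 13.3 in replicate 1 (rank 4707), both at the same base. Replicate 2 had no candidate there, so the pooled value came with replicate 1 alone. The acs-24 summit lay in exons of both the ion channel gene asic-1 and C32E8.12. Its signals were 21.5 in the pool and 12.8 in replicate 1, with none in replicate 2. At acs-16 they were 20.4 (rank 8181), 10.5 (rank 12749) and 8.15 (rank 24490), with all summits between 134 and 148 bp upstream. The acs-9 summits lay at the start itself, 67 bp downstream in the pool, 9 bp downstream in replicate 1 and 12 bp upstream in replicate 2, with signals of 18.2, 9.01 and 8.43. At acs-7, which acts in ascaroside synthesis, the signals were 18.5, 10.9 and 12.7, at highest summits 274, 218 and 975 bp upstream. Replicate 2 also held a lower summit 335 bp upstream, 117 bp from that of replicate 1, and the pool held one just beyond the promoter, 1045 bp upstream. The starvation-induced acs-2, a known target of NHR-49, had 15.7 in the pool (rank 21384) and 8.23 in replicate 2 (rank 23973), and none in replicate 1. At acs-3 the signals were 15.2, 10.4 and 8.17, with ranks of 23421, 12924 and 24362. The acetyl-CoA synthetase gene acs-19 had 18.7 in the pool (rank 11836, 299 bp upstream) and 14.2 in replicate 2 (rank 3065, 305 bp upstream), and none in replicate 1. It was the member nearest to an IDR peak, at 3070 bp, and acdh-2 was next at 3937 bp.

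The carnitine palmitoyltransferase genes had 3 pooled candidates among 6 genes. That of cpt-2, named for the mammalian enzyme of the inner mitochondrial membrane, had a signal of 20.5 (rank 7866, IV 11178955 to 11179304, 515 bp upstream) and 9.40 in replicate 2, and none in replicate 1. The summit was also 535 bp upstream of C08F8.9 on the opposite strand. The pooled candidates of cpt-6 (15.7, rank 21566) and cpt-1 (13.99, rank 29226) had no counterpart at the promoter in either replicate, and cpt-4 had one in replicate 1 alone. No cpt- gene was found in both replicates, where 13.3% of all genes were.

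Fatty acid-binding proteins carry lipids in or between cells. At lbp-1 (WBGene00002253), which encodes a member with a predicted secretion signal, the 3 lists placed the summit at 875, 872 and 867 bp upstream (X 3258092 to 3258441 in the pool). The signals were 27.7 (rank 1230), 11.5 in replicate 1 (rank 9002) and 11.05 in replicate 2 (rank 9732), so the replicates ranked it much alike. It lies in intergenic sequence between lbp-3 and lbp-1 in the tandem lbp-3, lbp-1, lbp-2 cluster, and lbp-3 had no candidate at its promoter. At lbp-5 the pooled signal was 24.5 (rank 2996, I 6732360 to 6732709). Summits 271 and 274 bp upstream in replicates 1 and 2 lay close to it, at signals of 9.59 and 9.98, and a second candidate in replicate 1 stood 21 bp upstream with 11.9. The lysosomal lipid chaperone gene lbp-8 had 16.8 in the pool and 7.72 in replicate 1 (rank 29115), in an exon of the neighbouring gene spp-12. The remaining genes lbp-4, lbp-6, lbp-7 and lbp-9 had none.

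**Figure D3:**
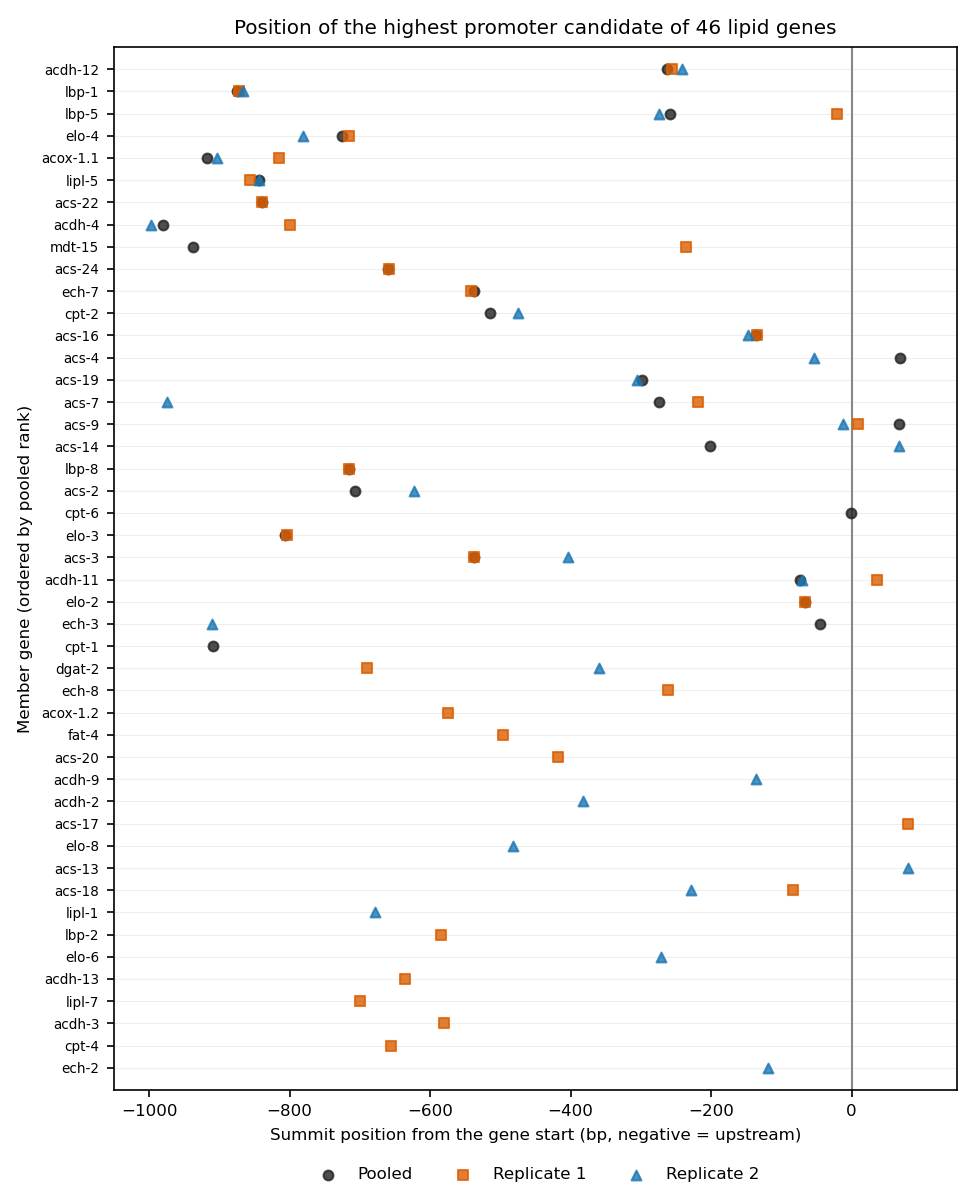
Each row is 1 of the 46 lipid genes with a candidate, in the order of pooled rank, and marks give the position of the highest candidate's summit from the gene start in each list (x axis in bp, negative upstream, the vertical line at 0 is the start). Marks lie close together at acdh-12, lbp-1, lipl-5 and acs-16, and lie far apart at acs-7 and ech-3. Only the highest summit of each list is drawn, and a lower one may lie elsewhere in the same promoter.

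The elongase gene elo-4 was ranked alike by both replicates. Its signals were 24.1 in the pool (rank 3291, III 9334825 to 9335174, 726 bp upstream), 12.3 in replicate 1 (rank 6764, 715 bp) and 12.5 in replicate 2 (rank 5690, 781 bp). The summit was also 183 bp upstream of the non-coding gene C40H1.13 on the opposite strand. The palmitate elongase gene elo-2 had 14.9 in the pool and 11.9 in replicate 1 (rank 7948), both 67 bp upstream, and none in replicate 2. The elo-3 candidate was at 15.6 and 8.69 in the same lists. Of the elongase genes for branched-chain fatty acids, elo-5 had none and elo-6 had one in replicate 2 alone (8.12, rank 24718, 272 bp upstream). The polyunsaturated fatty acid elongase gene elo-1 had none.

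Of the desaturase genes fat-1 to fat-7, 0 of 7 had a pooled candidate, against 31.1% of all genes. No test was made on these 7 genes. The gene fat-4, a front-end desaturase, was the 1 of 7 with a candidate in any list (49.2% of all genes had none), at 11.1 in replicate 1 (rank 10339, 496 bp upstream). The genes fat-5, fat-6 and fat-7, which encode desaturases of saturated fatty acids and of which the last is the classical NHR-49 target, had none. Their nearest pooled summits were 2020, 2311 and 5909 bp from the start. For fat-1, fat-2 and fat-3 these distances were 1705, 2379 and 2217 bp.

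Among the regulators and the first enzymes of synthesis, neither sbp-1 nor pod-2, which encodes acetyl-CoA carboxylase, nor fasn-1, the fatty acid synthase gene, had a candidate at the promoter in any list. The nearest pooled summits to their starts were at 770, 2093 and 440 bp, and those of sbp-1 and fasn-1 lay downstream of the start. For mdt-15 the pooled candidate had a signal of 21.5 (rank 6303, III 5834514 to 5834863), 938 bp upstream, and that of replicate 1 had 11.2 (rank 10130) at 236 bp upstream, while replicate 2 had none. Replicate 1 also held a summit near the pooled one but just beyond the promoter, 1024 bp upstream (10.5, rank 12636). The pooled and replicate 1 candidates both also fell in the promoter of another gene on the same strand, R12B2.6 for the pool and R12B2.13 for replicate 1. The diacylglycerol acyltransferase gene dgat-2, which acts in triglyceride synthesis, had no pooled candidate. It had 12.4 in replicate 1 (rank 6492, 690 bp upstream) and 7.72 in replicate 2 (rank 27618, 360 bp upstream), again at different positions, both shared with fbxa-108 on the opposite strand.

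Of the 8 lipase genes of the lipl- family, lipl-5, whose product is a lysosomal lipase induced by fasting, was the gene with candidates in all lists. Signals were 22.8 in the pool (rank 4641, V 384728 to 385077), 11.2 in replicate 1 (rank 10076) and 13.6 in replicate 2 (rank 3782), at 843, 857 and 843 bp upstream. The lipl-1 candidate was found in replicate 2 alone and that of lipl-7 in replicate 1 alone. The lipl-3 and lipl-4 genes, which encode lysosomal lipases of fasting and longevity, had none.

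**Figure D4:**
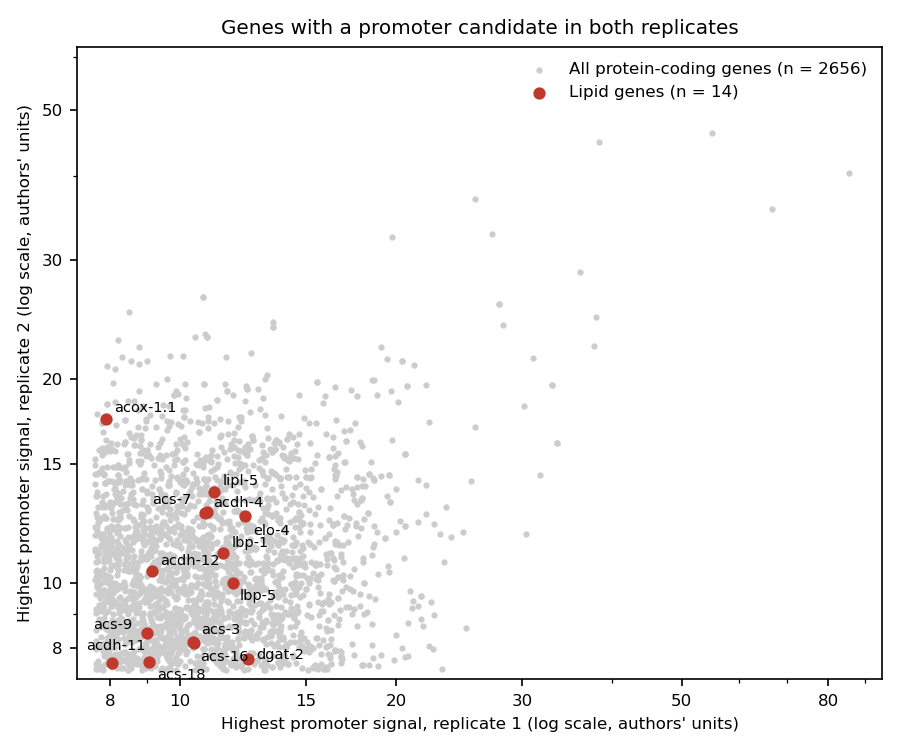
Each point is a gene with a promoter candidate in both replicates, placed by its highest signal in replicate 1 (x axis) and replicate 2 (y axis), both log scales in the authors' units, with 14 lipid genes in red and all 2656 protein-coding genes in grey. The lipid genes lie within the dense lower part of the grey cloud, with acox-1.1 high in replicate 2 (17.5) and low in replicate 1 (7.89), and none joins the few genes high in both.

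In the pool 22 of 27 member summits were outside protein-coding genes (81.5%, against 62.1% over all genes). In replicate 1 this was 22 of 31 (71.0%, against 62.3%) and in replicate 2 it was 22 of 27 (81.5%, against 61.4%). Of the other pooled summits, 2 were inside the member itself (acs-4 and acs-9). A further 3 were inside other genes (F57B10.8, asic-1 together with C32E8.12, and spp-12). A protein-coding neighbour's promoter held the same summit at 3 members, acdh-12, cpt-2 and mdt-15. Shares of summits inside the gene, inside another gene or in a neighbour's promoter were not computed over all genes. The median summit lay 537 bp upstream in the pool, 574 bp in replicate 1 and 360 bp in replicate 2, against 423, 436 and 420 bp over all genes. Just inside the window's upstream edge were the pooled summits of acdh-4 (980 bp upstream, 22.5) and mdt-15 (938 bp, 21.5). Just outside were those of acs-7 (1045 bp, 22.1) and acs-14 (1053 bp, 17.8), so the edge of the window separated like signals. By chromosome, the pooled list held candidates for 6 of 16 members on I, 3 of 12 on II, 5 of 12 on III, 3 of 21 on IV, 7 of 26 on V and 3 of 9 on X. Over all genes the share ran from 28.2% on IV to 36.7% on X.

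Gene bodies were examined apart from promoters. A pooled summit lay within the transcribed span of 63 of 96 members (65.6%), against 53.8% of all genes. Member genes are longer, with a median of 2581 bp against 2027 bp, and per 10 kb of gene the number of summits was 3.05 in members and 3.12 in all genes. In replicate 1 these densities were 3.27 and 3.10, and in replicate 2 they were 2.73 and 3.14. The signal in the body was above that of every lipid promoter at 3 members, named after their values were seen: acs-17 (31.0 in the pool, 18.2 in replicate 1, 7.61 in replicate 2), lipl-1 (30.3, 9.68 and 19.1) and acs-13 (28.6, 14.9 and 11.2). The fat-4 body held 27.5 in the pool, 11.1 in replicate 1 and 16.4 in replicate 2. The values of acs-17 and lipl-1 were high in one replicate and low in the other.

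Further genes of lipid metabolism outside the list were examined in the same way. Of 74 listed genes 73 were annotated, and 27 had a pooled candidate (37.0%), 31 one in replicate 1 (42.5%), 26 one in replicate 2 (35.6%) and 14 one in both (19.2%), each above the share of all genes given for the members, with no test made. No interval was computed for these shares. The further genes include maoc-1, counted through the same region as acdh-12 (28.1 in the pool, rank 1143). None of the 73 had an IDR peak. The highest was pcyt-1, whose product makes CDP-choline for phosphatidylcholine synthesis, with 34.4 in the pool (rank 174, 385 bp upstream), 12.6 in replicate 1 (rank 6178, 397 bp) and 21.8 in replicate 2 (rank 110, 375 bp). The lipid droplet gene plin-1 had 23.7, 11.9 and 12.7, the peroxisomal import receptor gene prx-5 24.7, 15.01 and 9.78. In these 3 genes the summits of the replicates lay within 100 bp of each other. The phosphatidic acid phosphatase gene lpin-1 had 19.6, 9.08 and 9.63, at highest summits 397, 695 and 408 bp upstream, and it too had a pair of replicate summits within 100 bp. The basic helix-loop-helix gene mxl-3, a repressor of lysosomal lipases, had 24.6, 16.04 and 10.8, at 227, 226 and 408 bp upstream. The nuclear hormone receptor gene nhr-49 had no pooled candidate, with 11.8 in replicate 1 (985 bp upstream) and 14.6 in replicate 2 (459 bp upstream).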

How the data were processed

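ChIP-seq peak lists of 2 biological replicates, their pool and an IDR-thresholded set were used. Per the file lists the submitters supplied, each list gives regions with a summit and a signal value made by the authors. The aligner, peak caller, signal scale and IDR setting are not stated there. Depth is unknown, and no interval rests on reads. Deposited lists on ce10 were not used. Lists on ce11 were set against Ensembl release 115 genes of WBcel235, the same build, with positions counted from 1. Sequence came from the RefSeq genome of that build.

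Candidates were summits in the promoter (1000 bp before to 100 bp after the start), and the highest was reported. The rule for named genes took the 12 members listed singly, the 10 of highest pooled signal, the highest of each family, members whose replicate summits lay within 100 bp, members of rank 1000 or better in any list, the 2 nearest to an IDR peak, and genes sharing their summits. Every other gene named with its values was chosen after its values were seen. Members and lists were chosen with earlier results of these data known. piRNA genes were left out of neighbour annotation. Motifs were searched on both strands within 100 bp of summits. The summit assignment was tested on simulated summits. With 1 group, no test between groups was made. Alternatives were other windows, starts, overlaps and rank limits. Python 3.11.15, numpy 2.4.6, pandas 2.3.3, scipy 1.17.1 and matplotlib 3.10.9 were used.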

Additional observations from a re-analysis of the deposited data

How the results depend on the processing

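With the upstream limit at 500 bp, candidates fell to 14 members in the pool and 7 in both replicates (18.9 and 6.17% of all genes), and at 2000 bp they were 45 and 25 (50.4 and 29.7%). Within the top 10000 regions they were 13 and 2 (11.3 and 2.55%), and within the top 5000 they were 8 and 0 (5.89 and 0.981%). Where region overlap replaced the summit, candidates were 30 and 16 (39.2 and 19.5% of all genes). With all transcript starts they were 30 and 17 (35.3 and 17.1%). In both of these settings the pooled share of members was below that of all genes. Under overlap the share of members in both replicates was below it too. The median highest pooled signal of members was 17.8 with 500 bp, against 17.89 over all genes. Where region overlap replaced the summit it was 20.4, against 18.02. It was 22.6 in the top 10000, against 22.68, and 23.4 in the top 5000, against 25.31. With 2000 bp the median was 18.24, against 18.27. The higher median of members in the main setting was thus not seen with 500 or 2000 bp or under either rank limit. With replicate summits paired within 250 bp, 13 members (13.5%) and 1999 of all 19973 genes matched. With 150 bp around the summit, an alternative chosen after seeing the data, AGGTCA lay at 7 of 27 members (25.9%), against 8.31% of all genes. Single replicate lists gave 27 to 31 members with medians of 9.40 to 10.8 on their own scales. No lipid gene had an IDR peak with 500, 1000 or 2000 bp. For single members, 46 alternatives left no candidate, and 6 of the 116 with a value moved it by more than 1 SD between the replicates, or at all where a replicate had no candidate. That SD comes from signals of the replicate lists, whose range differs from that of the pooled list, so this count is a description only. A highest region that stays within a narrower limit cannot change. No paired analysis was possible because the series has 1 group. The depth is unknown, and 2 replicates with unlike ranks limit any statement on a single gene.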
